A study of Mus musculus with 12 samples.

Results

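The 10 genes described here encode the elastic fibre and the lysyl oxidases that cross-link it: elastin (Eln), the fibrillins Fbn1 and Fbn2, the fibulins Fbln1, Fbln2 and Fbln5, the microfibril interface protein Emilin1, and the oxidases Lox, Loxl1 and Loxl2. They are 10 of 24458 genes in a table of RNA sequencing of embryonic fibroblasts of the mouse, which are matrix-making cells cultured from embryos, used here at up to the fifth passage. The groups were 4 libraries of cells given apigenin at 50 µM, 4 given chrysin at 50 µM and 4 left untreated in control medium, all at 24 h. Both agents are plant flavones, and they differ in the B ring, which has a hydroxyl in apigenin and none in chrysin. The labels give no mouse strain and do not say whether the control medium held solvent, so a flavone and its solvent cannot be told apart, nor do they state that replicates were separate cultures, and errors and p-values cover only the spread between these libraries, which may be technical. The genes were chosen by name with earlier results of these libraries in view, in which Eln and Fbn2 stood among the strongest decreases. Their differences from untreated cells are therefore descriptions, given with standard errors and without p-values. Calls of these differences as lower or higher rest on a threshold on adjusted p, and are descriptions too.

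Elastic fibres give skin, lung and arteries their recoil. Fibroblasts secrete tropoelastin, the soluble product of Eln, which is laid down on a scaffold of fibrillin microfibrils with the help of fibulins and emilins. Lysyl oxidases, copper enzymes, then oxidise lysine side chains, and the products condense into the cross-links that make elastin and collagen fibres insoluble.

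RefSeq promoter sequences of build GRCm38.p6 were found for 5 of the 10 genes, Fbn1, Fbln1, Fbln2, Fbln5 and Emilin1, and not for Eln, Fbn2, Lox, Loxl1 or Loxl2. Shown first are the 250 bases before the most upstream start of Emilin1 (chr5:30913536-30913785, plus strand) and Fbln1 (chr15:85205699-85205948, plus strand), whose levels divided the apigenin libraries as described later. The next pair is Fbn1 (chr2:125506439-125506688, minus strand), which divided them less widely, and Fbln5 (chr12:101819120-101819369, minus strand), which was even across them. Each runs 5′ to 3′ on the gene's strand, and capitals mark every match to a searched motif.
Emilin1: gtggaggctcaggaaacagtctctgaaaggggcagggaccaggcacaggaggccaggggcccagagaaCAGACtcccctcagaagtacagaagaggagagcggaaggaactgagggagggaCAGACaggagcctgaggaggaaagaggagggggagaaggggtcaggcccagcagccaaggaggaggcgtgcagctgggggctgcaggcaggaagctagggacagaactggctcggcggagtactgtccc
Fbln1: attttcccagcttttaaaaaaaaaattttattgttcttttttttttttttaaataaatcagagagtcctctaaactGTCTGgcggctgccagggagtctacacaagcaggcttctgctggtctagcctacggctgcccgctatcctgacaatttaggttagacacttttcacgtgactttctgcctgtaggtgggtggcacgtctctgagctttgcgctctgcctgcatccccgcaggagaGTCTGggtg
Fbn1: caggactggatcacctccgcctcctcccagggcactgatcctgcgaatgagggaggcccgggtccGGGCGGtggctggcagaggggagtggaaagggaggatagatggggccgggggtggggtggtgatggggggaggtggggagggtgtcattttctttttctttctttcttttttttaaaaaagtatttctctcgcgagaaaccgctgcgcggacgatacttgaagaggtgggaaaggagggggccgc
Fbln5: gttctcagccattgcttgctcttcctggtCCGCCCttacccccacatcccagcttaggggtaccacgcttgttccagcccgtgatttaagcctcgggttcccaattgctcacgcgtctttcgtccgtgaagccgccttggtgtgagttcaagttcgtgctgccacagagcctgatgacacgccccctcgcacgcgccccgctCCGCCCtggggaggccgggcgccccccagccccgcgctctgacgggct

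The motifs were searched on both strands as short letter strings: TGANTCA for AP-1, CAGAC for SMAD, GGAATG for TEAD, TGACNNNGC for NRF2 with MAF, and GGGCGG for Sp1. The only matches in Emilin1 and Fbln1 were 2 of the SMAD string in each. At least 1 SMAD string was in 42.2% of all 32851 promoter windows of the same length, and the share with 2 was not counted. Fbn1 held 1 Sp1 string, Fbln5 held 2, and Fbln2, whose window is not shown, held 1. At least 1 Sp1 string was in 32.7% of all windows. No match to the AP-1, TEAD or NRF2 strings lay in these windows or in that of Fbln2, and those strings were in 6.75%, 12.6% and 10.2% of all windows. A match is a description of letters and not of binding.

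Recovered totals ran from 4298640 to 15512635 reads per library. All 10 genes passed the filter of a mean normalized count of at least 10, as did 12198 genes in all, and the fewest reads behind any of their values were 45 (Fbn2 in apigenin replicate 4). All 8 fibroblast markers listed for this check passed the same filter, with a summed normalized count of 66609 to 76912 in apigenin, 81062 to 94770 in chrysin and 133663 to 143393 in untreated libraries. The markers did not move as 1. With apigenin 7 were called lower and Pdgfra higher (0.59 ± 0.10). With chrysin 5 were called lower, while Vim (0.00 ± 0.07), Thy1 (0.10 ± 0.07) and S100a4 (0.01 ± 0.09) were not called. Of all genes tested, 23.2% were called lower with apigenin and 26.7% with chrysin. Col1a1 and Col1a2, collagen genes and so matrix genes themselves, were among those lower with both flavones (-1.15 and -1.33 with apigenin, -1.27 and -1.39 with chrysin). Most of each fibroblast sum was Col1a1, Col1a2 and Vim. Mean normalized counts with apigenin, with chrysin and untreated were 18603.9, 16989.6 and 40947.9 for Col1a1 and 13853.1, 13177.5 and 34554.9 for Col1a2. Those of Vim were 28513.5, 45050.5 and 44861. The lower chrysin sum lay mostly in Col1a1 and Col1a2, and the lower apigenin sum in these and Vim. Fewer fibroblasts and less RNA of these markers per cell cannot be told apart in bulk samples. The 8 smooth muscle and pericyte markers come from cells that also make elastin, and fibroblasts express them in part. All 8 passed too, and summed to 15739 to 19471, 36438 to 37704 and 23289 to 27245 in the same order. Most of each sum was Acta2 and Tagln. With apigenin 4 were called lower and 0 higher, beside 23.2% and 23% of all genes tested. With chrysin 0 were called lower and 5 higher, beside 26.7% and 26.3%. Lmod1 (-0.48 ± 0.22), Rgs5 (-0.27 ± 0.43) and Des (0.77 ± 0.45) were not called with chrysin. Of the 6 epithelial markers 0 passed, with Krt14 at 0 throughout, and 2 of 6 endothelial markers passed, with Tie1 at 0 throughout and sums of 16.3 to 23.9, 27.6 to 61.9 and 74.2 to 95.7. Of 6 macrophage markers 5 passed, none at 0 in every library, with sums of 834 to 1034, 379 to 452 and 358 to 443. Most of each sum was Cd68, with means of 830, 348 and 300, and Cd68 was called higher with apigenin (1.46 ± 0.11). Ptprc, Adgre1, Csf1r and Itgam were not called with either flavone. The 5 adipocyte markers (2 passed, Cidec at 0 throughout) summed to 454 to 502, 579 to 742 and 737 to 947, and the 5 chondrocyte markers (3 passed) to 240.3 to 281, 199.8 to 216 and 386 to 446. Of the adipocyte markers, Lpl was called lower with apigenin (-0.79 ± 0.11) and with chrysin (-0.66 ± 0.11). Fabp4 was called lower with apigenin (-1.51 ± 0.28) and higher with chrysin (0.82 ± 0.28). Which cells gave the changes of the elastic fibre genes was not tested. The apigenin libraries were not alike: replicates 1 and 3 stood apart from replicates 2 and 4, with a difference of at least 0.5 on the log2 scale between the pair means in 31.8% of all genes tested, so apigenin results are also given for each pair where the pair means of a gene differed by at least 0.5.

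Levels below are log2 of the normalized count plus 1, and differences are on that scale, with ± for the standard error from limma and n = 4 per group. A gene is called when its adjusted p is under 0.05 over all genes tested. With apigenin 8 of the 10 genes were called lower and 0 higher, and the exceptions were Emilin1 and Loxl1, while 23.2% of all genes tested were called lower and 23% higher. With chrysin all 10 were called lower, against 26.7% of all genes called lower and 26.3% higher. The median difference of the 10 genes was -0.80 for apigenin and -0.77 for chrysin, and that of all genes tested was 0.01 and -0.03. All 4 apigenin values lay below all 4 untreated values in 7 of the 10 genes (22.8% of all genes tested), and all 4 chrysin values did so in all 10 (25.7%). Since the genes were chosen with these differences in view, nothing further is read from these counts. Both flavones were set against the same 4 untreated libraries.

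**Figure D1:**
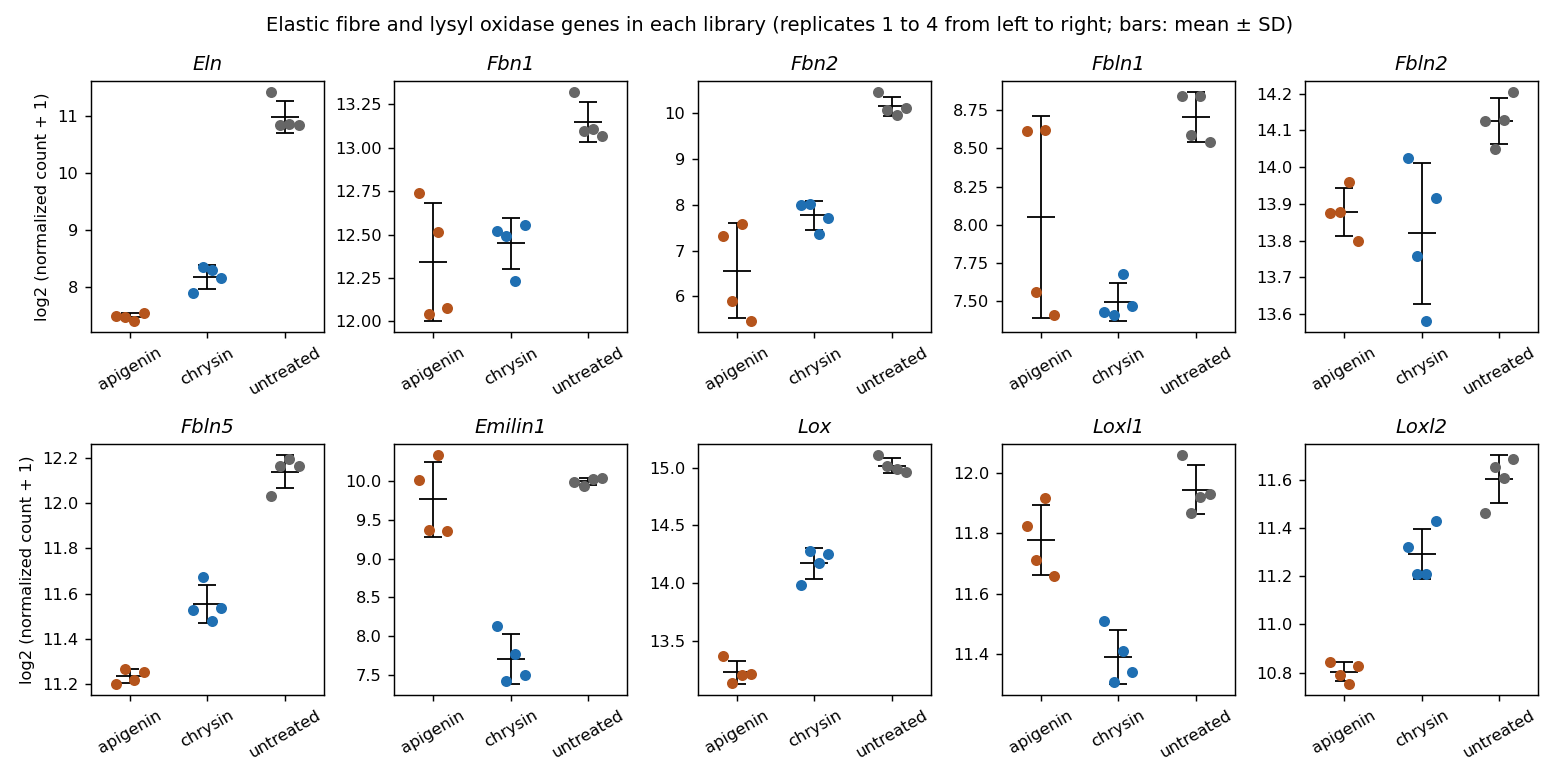
Level of each gene in every library, as log2 of the normalized count plus 1 on the vertical axis, with apigenin, chrysin and untreated libraries from left to right in each panel (points: replicates 1 to 4; bars: mean ± SD; each panel has its own axis range). Eln and Lox lie in 3 separate bands, with apigenin lowest, while Fbn2, Fbln1 and Emilin1 divide within apigenin.

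Eln, on chromosome 5 at 135179651 to 135223111 of the minus strand in mm9 (GENCODE vM1), encodes the elastic core itself. It had levels of 7.49, 7.47, 7.40 and 7.55 in apigenin replicates 1 to 4, 7.89, 8.35, 8.30 and 8.17 in chrysin, and 11.42, 10.85, 10.87 and 10.84 in untreated libraries. The 3 groups did not overlap, the 4 apigenin values lay within a narrow band, and untreated replicate 1 was the highest library. The level was 11.4-fold lower with apigenin (-3.52 ± 0.14) and 7.06-fold lower with chrysin (-2.82 ± 0.14). Without untreated replicate 1 the differences were -3.38 and -2.68.

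Fbn2, the fibrillin best known from developing tissue, differed as widely. It stood at 7.31, 5.89, 7.58 and 5.46 in the apigenin libraries, 8.00, 8.02, 7.35 and 7.72 in the chrysin libraries and 10.46, 10.07, 9.98 and 10.12 in the untreated ones. Both treated groups lay below every untreated library, and apigenin replicates 2 and 4 lay far below replicates 1 and 3. The fitted difference was -3.60 ± 0.41 with apigenin, a 12.1-fold lower level, and -2.39 ± 0.41 with chrysin, a 5.23-fold lower level. From apigenin replicates 1 and 3 alone it was -2.71 ± 0.17, and from replicates 2 and 4 alone -4.48 ± 0.18.

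Fbn1, the main fibrillin of adult microfibrils and the gene mutated in Marfan syndrome, showed smaller differences. Its levels were 12.74, 12.04, 12.52 and 12.08 with apigenin, 12.52, 12.49, 12.23 and 12.55 with chrysin and 13.32, 13.10, 13.11 and 13.06 untreated. Treated and untreated libraries did not overlap, and the 2 flavones did. The difference was -0.80 ± 0.13 with apigenin and -0.70 ± 0.13 with chrysin, with -0.52 ± 0.10 from apigenin replicates 1 and 3 alone and -1.09 ± 0.10 from replicates 2 and 4 alone. In GENCODE vM1 its exons share 2442 bases with Gm9913 on the opposite strand, and no source names the strand setting of the authors' counting, so reads of the 2 genes may be mixed.

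Among the fibulins, Fbln5, which binds tropoelastin and lysyl oxidase-like enzymes during assembly, was even within groups. It read 11.20, 11.26, 11.22 and 11.25 with apigenin, 11.53, 11.67, 11.48 and 11.53 with chrysin and 12.03, 12.16, 12.20 and 12.16 untreated. The 3 groups were separate, in the same order as for Eln. The differences were -0.90 ± 0.07 for apigenin and -0.59 ± 0.07 for chrysin.

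Fbln2, a basement membrane and microfibril fibulin, differed little from untreated cells. It had 13.88, 13.88, 13.96 and 13.80 with apigenin, 14.02, 13.76, 13.58 and 13.91 with chrysin and 14.13, 14.05, 14.13 and 14.20 untreated. Every treated library lay below every untreated one, although by little. The difference was -0.25 ± 0.08 with apigenin and -0.31 ± 0.08 with chrysin. After quantile normalization the apigenin value turned to 0.05, and its call also ended in limma without trend and robust estimation, with apigenin replicates 1 and 3 alone (-0.21), and without apigenin replicate 4 (-0.22), untreated replicate 3 (-0.25) or untreated replicate 4 (-0.22).

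Fbln1, a fibulin found with fibronectin and elastic fibres, divided the apigenin group. Its levels were 8.62, 7.56, 8.62 and 7.41 in apigenin replicates 1 to 4, 7.43, 7.41, 7.68 and 7.47 in chrysin, and 8.84, 8.59, 8.85 and 8.54 in untreated libraries. Apigenin replicates 1 and 3 lay within the untreated range and replicates 2 and 4 within or next to the chrysin range. The difference was -0.65 ± 0.24 with apigenin and -1.21 ± 0.24 with chrysin. From replicates 1 and 3 alone it was -0.08 ± 0.14 and not called, and from replicates 2 and 4 alone -1.22 ± 0.15. The apigenin call also ended without apigenin replicate 2 (-0.49) or 4 (-0.44) without untreated replicate 1 or 3 (-0.61 each), in limma without trend and robust estimation, and with the 8 libraries of the 2 groups alone.

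Emilin1, a glycoprotein at the interface of elastin and microfibrils that also binds proTGF-beta, differed by flavone. It stood at 10.01, 9.37, 10.33 and 9.36 with apigenin, 8.13, 7.42, 7.77 and 7.51 with chrysin and 9.98, 9.93, 10.03 and 10.04 untreated. Chrysin lay below all other libraries, while apigenin replicate 1 was inside the untreated range, replicate 3 above it and replicates 2 and 4 below it. The chrysin level was 4.88-fold lower than untreated (-2.29 ± 0.20), and the apigenin difference was -0.23 ± 0.20. From apigenin replicates 1 and 3 alone this turned to 0.17 ± 0.15, and from replicates 2 and 4 alone it was -0.63 ± 0.15 and called.

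Lox, the founding lysyl oxidase, which cross-links both collagen and elastin, was the most abundant of the 10 per length in untreated cells. It read 13.36, 13.13, 13.20 and 13.21 with apigenin, 13.98, 14.28, 14.17 and 14.25 with chrysin and 15.11, 15.01, 14.99 and 14.96 untreated. The 3 groups were well separate, with apigenin lowest. The difference was -1.79 ± 0.08 with apigenin, a 3.47-fold lower level, and -0.85 ± 0.08 with chrysin, a 1.80-fold lower level.

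Loxl1, the family member most closely tied to elastin upkeep, differed less. Its levels were 11.82, 11.71, 11.92 and 11.66 with apigenin, 11.51, 11.31, 11.41 and 11.34 with chrysin and 12.06, 11.87, 11.92 and 11.93 untreated. Apigenin overlapped the untreated range and chrysin lay below both. The apigenin difference was -0.17 ± 0.08 and not called, and the chrysin difference was -0.55 ± 0.08. The apigenin value turned to 0.05 after quantile normalization and was called without apigenin replicate 3 (-0.21) and from replicates 2 and 4 alone (-0.26 ± 0.09).

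Loxl2, which oxidises collagen IV and also acts in the nucleus, had levels of 10.84, 10.79, 10.75 and 10.83 with apigenin, 11.32, 11.21, 11.21 and 11.43 with chrysin and 11.46, 11.65, 11.61 and 11.69 untreated. The groups did not overlap, although chrysin replicate 4 came close to the lowest untreated library. The differences were -0.80 ± 0.08 for apigenin and -0.31 ± 0.08 for chrysin.

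**Figure D2:**
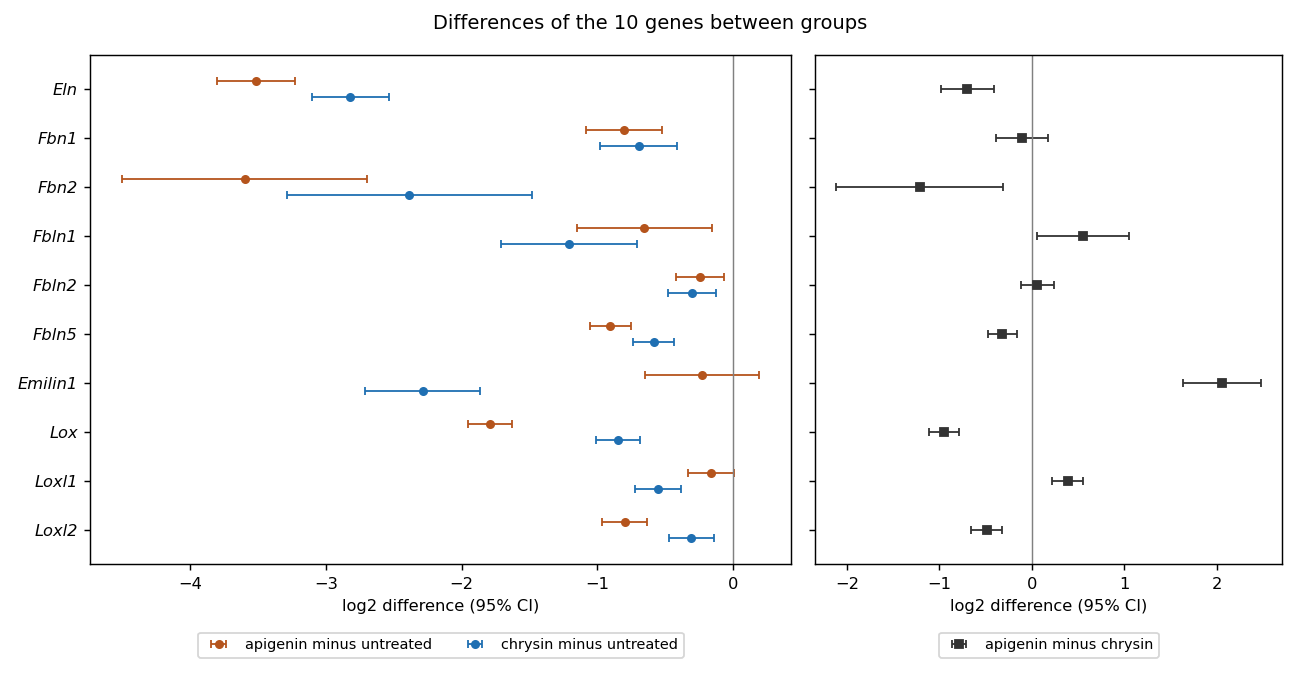
Log2 difference of each gene with its 95% confidence interval on the horizontal axes, for each flavone minus untreated (left panel) and apigenin minus chrysin (right panel). Eln and Fbn2 lie farthest to the left, and Emilin1 stands alone in the right panel at 2.06.

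The flavones, which had the same dose and time, were compared directly as 1 pair of compounds, with p-values from limma adjusted over all 12198 genes. Levels of 5 genes were lower with apigenin than with chrysin and 2 were higher, against 26.1% and 24.7% of all genes tested. In 4 genes, Eln, Fbln5, Lox and Loxl2, all 4 apigenin values lay below all 4 chrysin values, as in 21.5% of all genes tested. This contrast was not named among the values behind the choice of genes, although its results were known too. The same treated libraries enter the differences behind that choice, so the p-values here are descriptions and not tests of genes picked beforehand. Lox was lower by -0.95 ± 0.08 (adjusted p = 5.18e-08), Eln by -0.70 ± 0.14 (adjusted p = 0.000438), Loxl2 by -0.49 ± 0.08 (adjusted p = 7.73e-05) and Fbln5 by -0.32 ± 0.07 (adjusted p = 0.00154). The Fbn2 difference of -1.21 ± 0.41 (adjusted p = 0.0289) was not called with apigenin replicates 1 and 3 alone (-0.33), or without apigenin replicate 2 (-0.99) or 4 (-0.84) or chrysin replicate 1 (-1.13) or 2 (-1.13). The Fbln5 call ended after quantile normalization (-0.02).

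Emilin1 was 4.16-fold higher with apigenin than with chrysin, at 2.06 ± 0.20 (adjusted p = 8.66e-07), and over every alternative the difference ran from 1.65 to 2.46. Loxl1 was also higher with apigenin, by 0.39 ± 0.08 (adjusted p = 0.000756). The lysyl oxidases thus split, with Lox and Loxl2 lower and Loxl1 higher in apigenin than in chrysin libraries. Fbn1 (-0.11, 95% interval -0.39 to 0.17) and Fbln2 (0.06, -0.12 to 0.24) were not called, except Fbn1 with apigenin replicates 2 and 4 alone (-0.39) and Fbln2 after quantile normalization (0.45). Fbln1 was not called either, at 0.56 with an interval of 0.06 to 1.06 (adjusted p = 0.0594), and was called with the replicate number as a block (adjusted p = 0.0211), without apigenin replicate 2 (0.72) or 4 (0.77) and with apigenin replicates 1 and 3 alone (1.13).

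**Figure D3:**
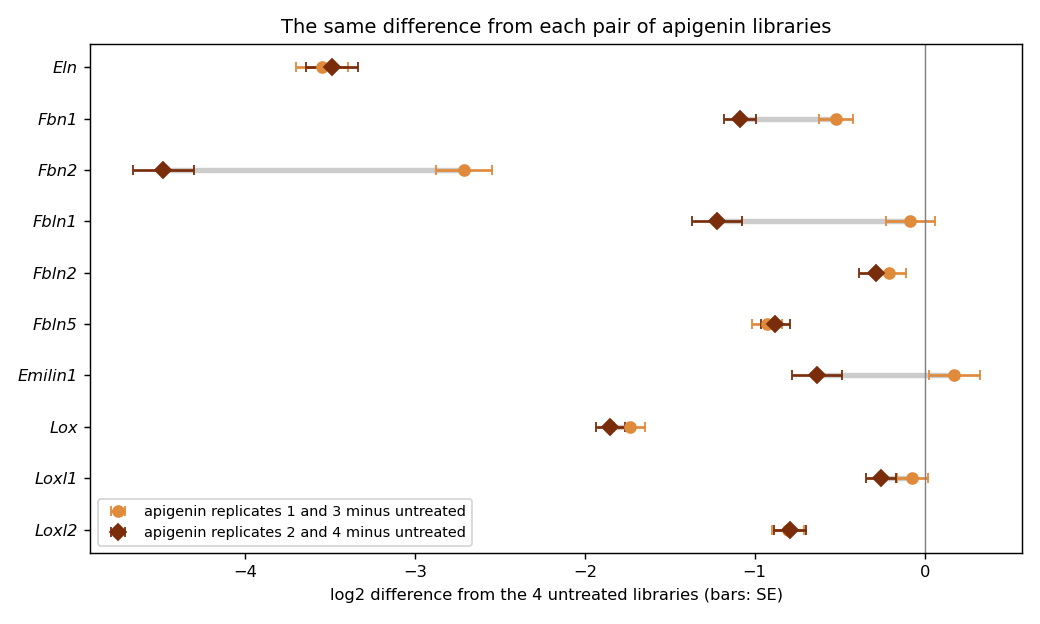
Difference of each gene from the 4 untreated libraries on the log2 scale, computed from apigenin replicates 1 and 3 alone (circles) or replicates 2 and 4 alone (diamonds), with standard errors. Fbn2, Fbln1, Emilin1 and Fbn1 have their 2 estimates apart, and those of Eln, Lox, Loxl2 and Fbln5 nearly coincide.

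The apigenin libraries divided for some of these genes and not for others. Replicates 1 and 3 exceeded replicates 2 and 4 by 1.77 in Fbn2, 1.14 in Fbln1, 0.81 in Emilin1 and 0.57 in Fbn1, so that 4 of the 10 genes differed by at least 0.5, where 31.8% of all genes tested did and the median size over all of them was 0.32. The same difference was -0.06 in Eln, -0.05 in Fbln5, -0.01 in Loxl2, 0.08 in Fbln2, 0.11 in Lox and 0.18 in Loxl1. With replicates 1 and 3 alone, 6 of the 10 genes were called lower than untreated (18.9% of all genes), leaving out Fbln1, Fbln2, Emilin1 and Loxl1, and with replicates 2 and 4 alone all 10 were (27.6%). The pairs rest on 2 libraries each, assumed to vary like the other groups, and were seen in these data. In apigenin replicates 1 to 4 the fibroblast markers summed to 75874, 69021, 76912 and 66609, the smooth muscle and pericyte markers to 15739, 19471, 17166 and 18484, the macrophage markers to 1034, 881, 918 and 834, and the read totals were 6651676, 15512635, 10013185 and 7899623. The part of these in the division was not tested.

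Levels of different genes were compared as normalized counts per kilobase of exon. They rest on annotated exon lengths, which were 2583 bases for Eln, 5829 for Fbln5 and 12128 for Fbn1. Whether the annotated exons of Eln are complete was not tested. A longer exon length would lower its values and could lower its place. The place of Eln in each group, and its changes of place between groups, are given with that limit. In apigenin libraries Fbln2 led with 2564 ± 117 (SD, n = 4), ahead of Lox at 2042 ± 143 and Loxl1 at 1055 ± 84.8, and Eln stood eighth with 68.6 ± 2.80, overlapping Fbln1. In chrysin libraries Lox led with 3940 ± 351, ahead of Fbln2 at 2477 ± 325 and Loxl1 at 806 ± 50.6, and Eln stood seventh with 112 ± 15.4, above Emilin1. In untreated libraries Lox led with 7073 ± 319, ahead of Fbln2 at 3045 ± 134 and Loxl1 at 1182 ± 68.0. Eln came next at 802 ± 173, and its range overlapped that of Fbln5 at 774 ± 38.2, which overlapped that of Fbn1 at 749 ± 62.2. Loxl2 (583 ± 38.9) and Emilin1 (207 ± 7.04) lay below them without overlap, and Fbn2 (110 ± 16.8) and Fbln1 (95.7 ± 10.7) were last and overlapped each other. Among the differences in order from untreated cells, Fbln2 stood above Lox with apigenin, and Eln stood below Fbn1, Fbln5 and Loxl2 with both flavones and below Emilin1 with apigenin. Fbn2 lay below Fbln1 without overlap with both flavones, at 10.7 ± 6.93 against 65.3 ± 28.4 for Fbln1 with apigenin and 21.1 ± 4.29 against 41.2 ± 3.75 with chrysin. Loxl2 overlapped Fbn1 with chrysin, at 470.0 ± 34.6 and 463 ± 44.9.

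Likeness to Eln was ranked by Pearson r over the 12 libraries among genes past the filter. Predicted genes, Rik genes, pseudogenes, Xist and Tsix were left out. The highest were Ptn (pleiotrophin, a secreted growth factor, 0.996), Unc13b (0.990), Sfrp1 (a secreted Wnt antagonist, 0.988), the fibrillar collagen Col11a1 (0.984) and the matrix protein Postn (0.983). Mean levels of Ptn were 7.97 with apigenin, 8.74 with chrysin and 11.25 untreated. Those of Unc13b were 6.95, 7.14 and 7.93, since r does not measure the size of a difference. These correlations mostly follow the 3 group means and are descriptions across libraries that share treatment.

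The 10 genes are part of a wider set. From textbook roles, 40 other genes of elastic fibre assembly were listed, with earlier results of these data known. Their shares here and below are therefore descriptions. Of the 40, 35 passed the filter. Emilin3, Mmrn1, Mmrn2, Adamtsl2 and Mmp9 did not and had at most 10 reads in any library. Of the 35, 16 were called lower and 5 higher with apigenin, and 17 lower and 7 higher with chrysin, with medians of -0.19 and -0.37. These are 45.7% lower and 14.3% higher with apigenin, where 23.2% and 23% of all genes tested were, and 48.6% lower and 20% higher with chrysin, where 26.7% and 26.3% were. Between the flavones, 12 were lower and 11 higher with apigenin, with a median of 0.07, which is 34.3% and 31.4% beside 26.1% and 24.7% of all genes tested.

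Of the 2 remaining lysyl oxidases, Loxl4 was called higher with both flavones and Loxl3 with chrysin. Loxl4 had levels of 9.71, 9.93, 9.78 and 9.99 with apigenin, 10.33, 10.15, 10.14 and 10.26 with chrysin and 9.03, 8.98, 9.07 and 9.13 untreated. It rose with both flavones (0.80 ± 0.09 and 1.17 ± 0.09), and no group overlapped another. Loxl3 stood at 9.96, 10.42, 9.98 and 10.36 with apigenin, 11.39, 11.41, 11.16 and 11.41 with chrysin and 9.77, 10.07, 10.17 and 10.21 untreated. It rose with chrysin (1.29 ± 0.12), lay at 0.13 ± 0.12 with apigenin, and was lower with apigenin than with chrysin by -1.16 ± 0.12 (adjusted p = 7.45e-07). Across the family of 5, apigenin therefore gave 2 called lower, 1 called higher and 2 not called, and chrysin gave 3 lower and 2 higher. Of all genes tested, 23.2% were lower and 23% higher with apigenin, and 26.7% and 26.3% with chrysin.

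Among 12 microfibril partners past the filter, 9 were called lower and 1 higher with apigenin, and 8 lower and 1 higher with chrysin. The lower ones are 75% and 66.7% of the 12, beside 23.2% and 26.7% of all genes tested. Those that fell included Mfap4 (-3.11 ± 0.37 with apigenin and -3.79 ± 0.37 with chrysin) and Mfap2 (-2.61 ± 0.31 and -3.01 ± 0.31), glycoproteins of the microfibril. From apigenin replicates 1 and 3 alone and from replicates 2 and 4 alone, the apigenin differences were -2.31 and -3.91 for Mfap4 and -1.89 and -3.33 for Mfap2. Mfap3 was the one that rose (0.86 ± 0.11 and 0.75 ± 0.11). Mfap5 read 6.89, 7.88, 6.96 and 8.00 with apigenin, 8.62, 8.96, 8.70 and 8.77 with chrysin and 8.68, 8.77, 8.75 and 8.86 untreated, so that it fell with apigenin (-1.33 ± 0.21, with -1.84 and -0.82 from the 2 pairs in the same order) and stood at 0.00 ± 0.21 with chrysin. The latent TGF-beta binding proteins were mixed, with Ltbp2 lower in both (-0.77 ± 0.14 and -0.79 ± 0.14), Ltbp1 lower with apigenin (-0.44 ± 0.07), and Ltbp3 (-0.46 ± 0.08) and Ltbp4 (-0.68 ± 0.19) lower with chrysin. The apigenin difference of Ltbp2 was -0.52 from replicates 1 and 3 alone and -1.02 from replicates 2 and 4 alone. Ltbp1 (-0.54 ± 0.07, adjusted p = 8.49e-06), Ltbp3 (0.61 ± 0.08, adjusted p = 4.92e-06) and Ltbp4 (0.69 ± 0.19, adjusted p = 0.00572) differed between the flavones.

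Of 5 other fibulin and emilin genes, 3 were called lower with apigenin and 2 with chrysin, and 0 were higher. The lower ones are 60% and 40% of the 5, beside 23.2% and 26.7% of all genes tested. Hmcn1, a very large fibulin, was the furthest, at -3.92 ± 0.43 and -4.80 ± 0.43, and its apigenin difference was -3.04 from replicates 1 and 3 alone and -4.81 from replicates 2 and 4 alone. Efemp2, also called fibulin-4, which is needed for lysyl oxidase to reach elastin, fell in both (-0.61 ± 0.11 and -0.51 ± 0.11). Efemp1 fell with apigenin (-0.41 ± 0.13), which ended after quantile normalization (-0.18), with apigenin replicates 2 and 4 alone (-0.14, against -0.67 from replicates 1 and 3 alone) and without untreated replicate 2 (-0.35).

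Genes that supply or activate lysyl oxidase did not share 1 direction. Of 7, 2 were called lower and 1 higher with apigenin, and 2 lower and 4 higher with chrysin. With apigenin these are 28.6% and 14.3%, beside 23.2% and 23% of all genes tested. With chrysin they are 28.6% and 57.1%, beside 26.7% and 26.3%. Bmp1, a protease that releases active lysyl oxidase, fell (-0.48 ± 0.10 and -0.76 ± 0.10), as did Postn, a scaffold for that cleavage (-1.94 ± 0.09 and -1.37 ± 0.09). Tll1, another protease of this list, stood at 0.01 ± 0.14 with apigenin and rose with chrysin (0.60 ± 0.14). Fn1 (0.56 ± 0.16) and Slc31a1 (0.46 ± 0.10) also rose with chrysin and were not called with apigenin. Atp7a, the copper pump that loads secreted enzymes, rose (0.58 ± 0.12 and 0.63 ± 0.12).

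RNA levels of the genes of the elastin receptor complex, which binds elastin fragments, differed between the flavones. The complex itself was not measured. All 3 genes were called higher with apigenin than with chrysin, as were 24.7% of all genes tested. The differences (limma) were 1.01 ± 0.10 for Neu1 (adjusted p = 7.53e-07), 0.69 ± 0.10 for Glb1 (adjusted p = 3.1e-05) and 0.42 ± 0.08 for Ctsa (adjusted p = 0.000355). Neu1, a sialidase, was called higher than untreated with apigenin (0.80 ± 0.10), and Glb1 and Ctsa lower with chrysin (-0.51 ± 0.10 and -0.61 ± 0.08). Of 6 proteases, 2 were called lower and 1 higher with apigenin, and 3 lower and 0 higher with chrysin. With apigenin these are 33.3% lower and 16.7% higher, beside 23.2% and 23% of all genes tested. With chrysin 50% were lower, beside 26.7% of all genes tested. Mmp2 fell with both flavones (-0.61 ± 0.11 and -1.53 ± 0.11), Mmp12, known as the macrophage elastase, fell with apigenin (-1.27 ± 0.21), and the lysosomal protease Ctsl fell with chrysin (-0.26 ± 0.08). Mmp14, which activates the Mmp2 protein, was called higher with apigenin (0.29 ± 0.11), a call that ended under 14 of 24 alternatives, among them apigenin replicates 2 and 4 alone (0.06), and fell with chrysin (-0.66 ± 0.11). Of the macrophage markers 1, Cd68, was called higher and 0 lower with apigenin, where 23% and 23.2% of all genes tested were. With chrysin 0 were called in either direction (limma). The part of these markers in the Mmp12 values was not tested.

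In the apigenin libraries 11 of the 35 other genes differed by at least 0.5 between replicates 1 and 3 and replicates 2 and 4, 7 of them higher and 4 lower in replicates 1 and 3. This is 31.4% of them, close to the 31.8% of all genes tested. Hmcn1 (1.77), Mfap4 (1.61), Mfap2 (1.43), Vcan (0.93) and Emilin2 (0.73) had the same direction as Fbn2 and Fbln1, and Mfap5 (-1.02) the opposite one.

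**Figure D4:**
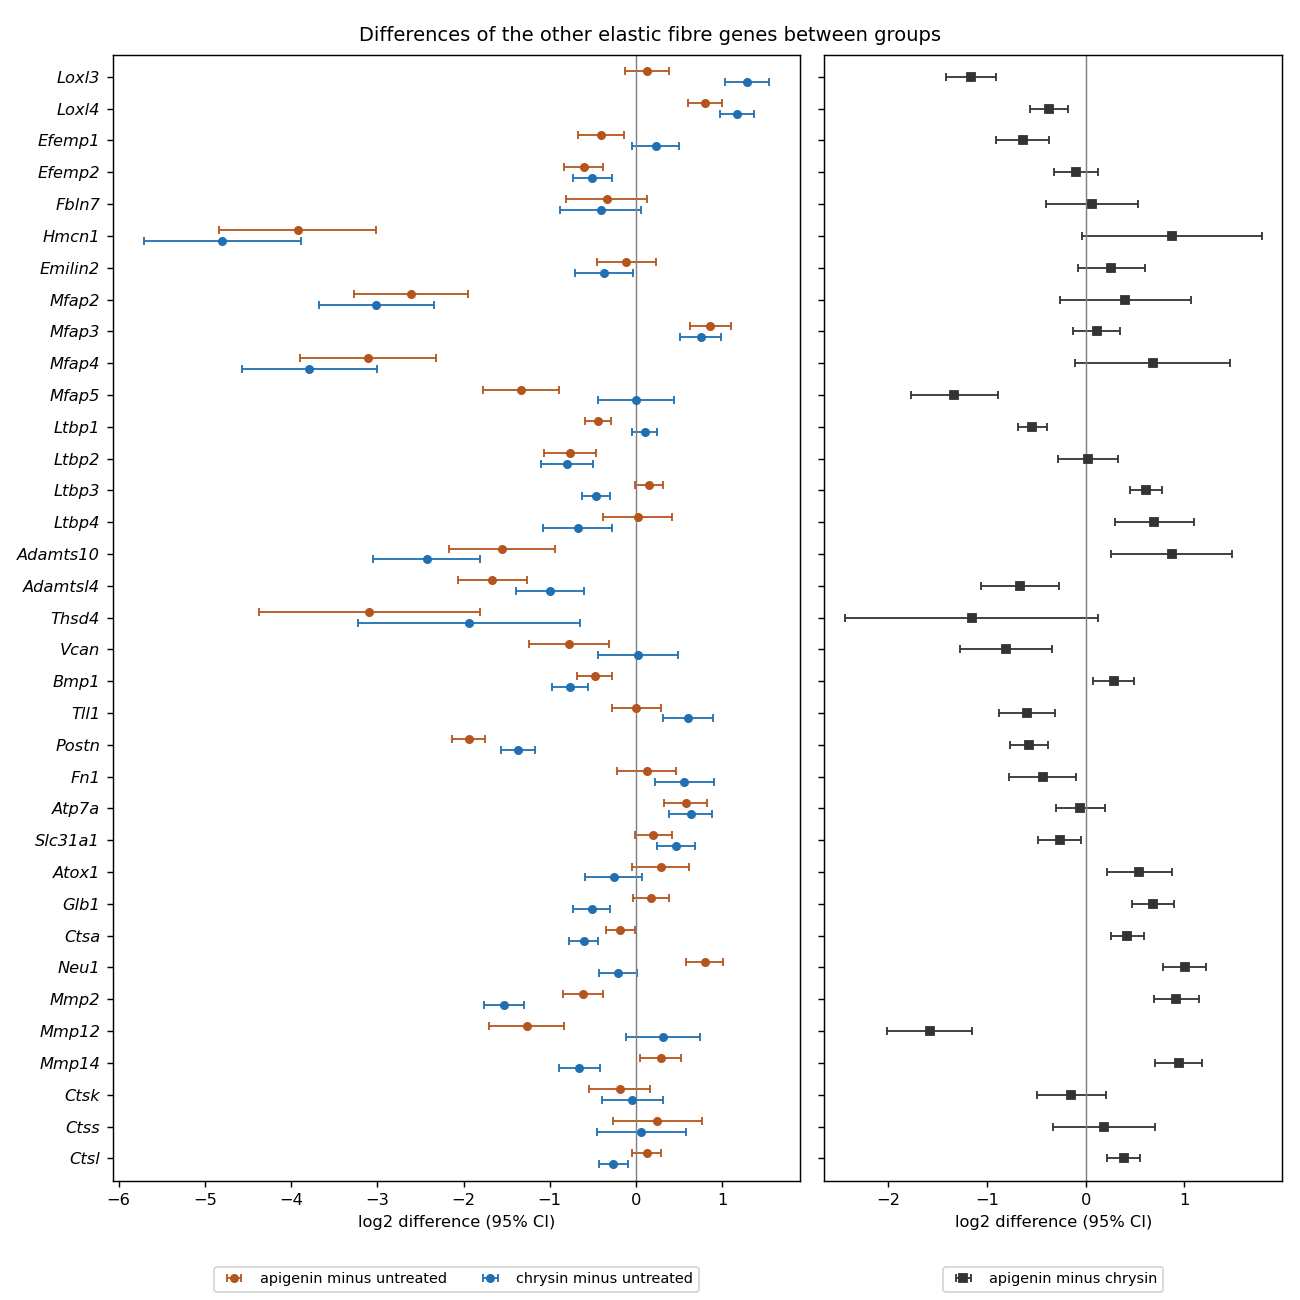
Log2 difference with its 95% confidence interval (horizontal axes) for the 35 other elastic fibre genes past the filter, as each flavone minus untreated (left panel) and apigenin minus chrysin (right panel). Hmcn1, Mfap4 and Mfap2 lie far to the left for both flavones, and Loxl4, Mfap3 and Atp7a lie right of 0 for both.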

How the data were processed

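RNA sequencing of 12 libraries in 3 groups of 4 was used, grouped by the sample titles. The submitters' processing notes name STAR, HTSeq, DESeq2, FastQC and cutadapt, as the authors' tools, and build mm9. They name no version, annotation or strand setting. Per the labels' protocols, a strand-specific mRNA kit was used. The deposited table holds log2 values per gene and library, which are log2 of a normalized count plus 1 as the values show. Undone, 99.966% to 100.0% of values under 500 reads lay within 0.05 reads of a whole number, which gave the totals. Gene names turned into dates (27) were restored by gene ID. Lengths and gene positions came from GENCODE vM1 on mm9, and promoters from RefSeq on GRCm38.p6, used separately.

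Genes averaging 10 or more normalized counts entered a model in limma 3.58.1 (R 4.3.3) that had 1 mean per group, trend and robust estimation, two-sided tests and Benjamini-Hochberg adjustment over 12198 genes, and the procedure was tested on simulated data. A difference on this scale understates that of genes with few reads. Every one of the 10 genes is named, and other genes come from the lists and from likeness to Eln. The genes, lists and alternatives were chosen with earlier results of these data known. Alternatives were a replicate block, quantile normalization, median centring, no filter or a minimum of 50, pseudocounts of 0.25 and 4, limma without trend, limma-voom on recovered reads, 8 samples, each apigenin pair and leaving out each library. Same-numbered libraries of different groups did not deviate together (r over 0.1 in 1 of 12 pairs), so the numbers were not taken as pairs.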

Additional observations from a re-analysis of the deposited data

Results flagged for a closer look

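Within a group of 4, a library was noted when its gap to the nearest other, as a share of the group's range, exceeded Dixon's 95% critical value, which chance gives in about 1 group in 20. Of 135 combinations of gene and group, 7 were noted, 1 of them among the 30 of the 10 main genes: Eln in untreated replicate 1, at 11.42 against 10.84 to 10.87 in the other 3. The others were Loxl3 in chrysin replicate 3 (11.16), Emilin2 in untreated replicate 1 (9.88), Ltbp1 in chrysin replicate 4 (12.59), Tll1 in apigenin replicate 3 (7.94) and in untreated replicate 1 (7.83), and Glb1 in apigenin replicate 1 (9.82).

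Mmp14 was called in opposite directions by the flavones, at 0.29 ± 0.11 with apigenin and -0.66 ± 0.11 with chrysin against untreated, a difference of 0.94 ± 0.11 between them (limma, adjusted p = 3.95e-06). The apigenin rise ended under 14 of 24 alternatives, among them apigenin replicates 2 and 4 alone (0.06) and the fits without apigenin replicate 1 (0.25) or 3 (0.18).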

How the results depend on the processing

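Over 24 alternatives, the 10 genes called lower with chrysin stayed at 10, those called lower with apigenin ran from 6 to 10, and those lower with apigenin than chrysin from 4 to 6. In the fit with the replicate number as a block, 8, 10 and 5 were called lower, Fbln1 became called between the flavones (0.56), and among the other genes Slc31a1 lost its call there, with 11 lower and 12 higher in place of 12 and 11. The median of the 10 genes kept its direction except between the flavones, where quantile normalization turned -0.21 to 0.12, and that setting also moved the other genes higher with apigenin to 8, against 5. Signs turned under quantile normalization for Fbln2 (0.047) and Loxl1 (0.052) with apigenin and Fbn1 between the flavones (0.26), with apigenin replicates 1 and 3 alone for Emilin1 (0.17) and, between the flavones, Fbn1 (0.18), and with replicates 2 and 4 alone for Fbln1 between them (-0.013). Leaving out 1 library moved Fbln2 between the flavones from -0.021 to 0.13. The cause of these shifts was not tested. Of 68 called differences of other genes, 58 kept their call throughout. Fbn2 in apigenin replicate 4 rests on 45 reads, so its level there is the least precise.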
